A study of Mus musculus with 6 samples.

Results

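The genes described are 9 components of the tight junction: the claudins Cldn3, Cldn4, Cldn6 and Cldn7, occludin (Ocln), the junctional adhesion molecule F11r, the zonula occludens scaffolds Tjp1 and Tjp3, and cingulin (Cgn). They were chosen by name, as every probe set whose single gene symbol in the platform annotation was 1 of these. All 9 were measured, by 15 of the 45037 probe sets that are not controls, and they are 9 of 18193 genes on the array with such a probe set. The cells were J1, a mouse embryonic stem cell line (labelled wild type or Jmjd1c knockdown), grown in 15% serum on gelatin, with the self-renewal cytokine leukemia inhibitory factor at 1000 U/ml. They carried a pLKO.1 lentivirus with 1 of 2 short hairpin RNAs against Jmjd1c, shJmjd1c#3 or shJmjd1c#4, or with the non-targeting hairpin shNT. Each group had 2 arrays, labelled biological replicates, so 6 in all, and their number limits the precision. Every group, shNT included, had been infected, kept for 2 days in 1.5 ug/ml puromycin to select carriers of the vector, and grown for another 4 days after replating. The labels name no clone or sort, and the cells' purity was not given.

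The tight junction is the seal at the top of the side wall of an epithelial cell. Claudins are membrane proteins whose strands join neighbouring cells and set which ions pass between them, occludin is a second kind of membrane protein in the same strands, and junctional adhesion molecules are immunoglobulin-type adhesion proteins beside them. The zonula occludens proteins bind the tails of the membrane proteins inside the cell, and cingulin ties this plaque to actin and myosin. Mouse embryonic stem cells grow as epithelial colonies, and claudin-6 is known as a claudin of pluripotent and early epithelial cells.

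Median signals ran from 69.2 to 81.0 over the arrays, and arrays correlated at 0.962 to 0.976 across probe sets, which are not independent replicates. The embryonic stem cell markers Pou5f1, Nanog, Sox2, Esrrb, Zfp42, Utf1, Dppa5a, Tdgf1 and Lin28a were all above the filter signal described next. Of 3 probe sets of the targeted gene, Jmjd1c, the brightest read 4541 and 4984 in shJmjd1c#3 arrays and 3274 and 4215 in shJmjd1c#4 arrays, against 6060.3 and 5516 in shNT arrays. Its log2 difference, the mean of both hairpins minus shNT, was -0.46 (SE 0.13, adjusted p = 0.358 by limma), while the others differed by 0.73 and 0.90 (adjusted p = 0.439 and 0.117 by limma). With the replicate number as a block, as described next, the probe set at 0.90 was called higher (adjusted p = 0.0127 by limma), and in shJmjd1c#4 alone the brightest was called lower (-0.64, adjusted p = 0.281 by limma, and 0.0394 with the block). The probe sets of Jmjd1c thus disagreed in direction, and the groups are named by their labels.

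Signal is the deposited array intensity on a linear scale, and differences are of log2(signal + 16). Each gene was represented by its brightest probe set and tested in a limma fit over the 12684 genes whose mean over the 6 arrays was at or above a signal of 40.1. All 9 genes passed this filter, each with a mean signal in every group above it. A call is an adjusted p under 0.05 (Benjamini-Hochberg over all genes tested). None of the 9 genes was called in the mean of both hairpins against shNT, where 0.725% of all genes were, in shJmjd1c#3 against shNT (0.071% of all genes), in shJmjd1c#4 against shNT (0.363%) or in shJmjd1c#4 minus shJmjd1c#3 (0%, none of 12684 by limma). At an unadjusted p under 0.05 the counts were 2, 4, 2 and 3 of 9, against 12.3%, 9.74%, 12.1% and 6.1% of all genes. Same-numbered arrays deviated together from their group means, so each comparison was also fitted with the replicate number as a block, a pairing inferred from these arrays that no label states. With the block 2 of the 9 were called in the mean of both hairpins (5.6% of all genes), 2 in shJmjd1c#3 (3.43%), 0 in shJmjd1c#4 (4.9%) and 1 in shJmjd1c#4 minus shJmjd1c#3 (0.418%).

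**Figure D1:**
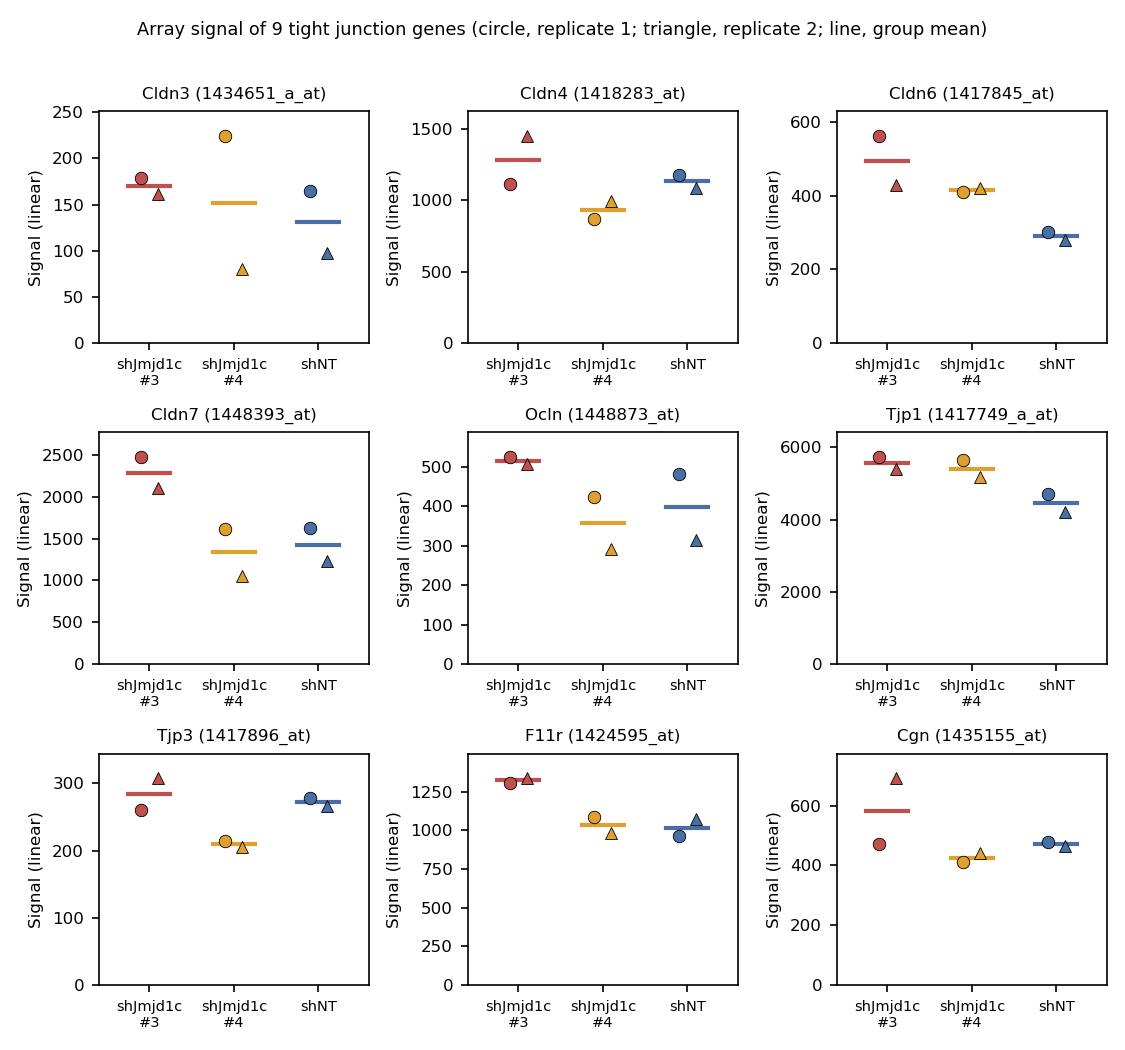
Signal of the brightest probe set of each of the 9 genes on each array (linear scale, axes from 0), by group, with circles for replicate 1, triangles for replicate 2 and a line at the group mean. Cldn6 and Tjp1 are higher in all 4 knockdown arrays than in both shNT arrays, and Cldn7 stands highest in the 2 shJmjd1c#3 arrays.

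Cldn6 (chromosome 17, 23679348 to 23682446 in GRCm38.p6), a claudin of pluripotent and early epithelial cells, read 562 and 429 in shJmjd1c#3 arrays and 411 and 421 in shJmjd1c#4 arrays, against 301 and 279 in shNT arrays. All 4 knockdown arrays lay above both controls, as they did for 11.2% of all genes tested. The group means were 495 ± 93.8, 416 ± 6.50 and 290.4 ± 15.6 (SD, n = 2 each) for shJmjd1c#3, shJmjd1c#4 and shNT, and the arrays of shJmjd1c#3 lay above those of shJmjd1c#4. The mean of both hairpins exceeded shNT by 0.61 on the log2 scale (SE 0.17, 95% interval 0.23 to 0.99), a 1.53-fold difference. It was not called (adjusted p = 0.188 by limma), and with the replicate number as a block it was (adjusted p = 0.0341 by limma). Taken singly, shJmjd1c#3 differed from shNT by 0.73 (SE 0.20, adjusted p = 0.264 by limma, and 0.0407 with the block). For shJmjd1c#4 this came to 0.50 (SE 0.20, adjusted p = 0.355 by limma, and 0.125 with the block).

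The call of Cldn6 with the block was lost without shNT replicate 1 (log2 0.58, adjusted p = 0.0525 by limma) and without shJmjd1c#3 replicate 1 (0.53, adjusted p = 0.13). It was also lost with median centring of each array (0.54, adjusted p = 0.0529 by limma), without the filter on dim probe sets (0.61, adjusted p = 0.0708) and without an intensity trend in the fit (0.61, adjusted p = 0.154). The direction was the same in each of these. The call of shJmjd1c#3 alone was lost in the same settings but for shNT replicate 1, and without shJmjd1c#3 replicate 2 (0.90, adjusted p = 0.0822 by limma).

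Cldn7 (chromosome 11, 69964779 to 69967886), a claudin of many epithelia that is also found along the side membrane, read 2475 and 2102 in shJmjd1c#3 arrays and 1617 and 1058 in shJmjd1c#4 arrays, against 1629 and 1231 in shNT arrays. Both shJmjd1c#3 arrays were above the other 4, while the shJmjd1c#4 and shNT arrays overlapped. The group means were 2288 ± 264, 1337 ± 395 and 1430.05 ± 282 (SD, n = 2 each). shJmjd1c#3 exceeded shNT by 0.68 on the log2 scale (SE 0.21, 95% interval 0.20 to 1.17; adjusted p = 0.348 by limma), a 1.6-fold difference that was called with the block (adjusted p = 0.0109 by limma). shJmjd1c#4 differed from shNT by -0.11 (SE 0.21, 95% interval -0.60 to 0.37; adjusted p = 0.894 by limma). The difference between the hairpins, shJmjd1c#4 minus shJmjd1c#3, was -0.79 (SE 0.21, 95% interval -1.28 to -0.31). Without the block it was not called (adjusted p = 0.568 by limma), and with it the difference passed (adjusted p = 0.0207 by limma). Without shJmjd1c#3 replicate 2 the calls with the block were lost for shJmjd1c#3 against shNT (0.55, adjusted p = 0.269 by limma) and for the difference between hairpins (-0.66, adjusted p = 0.181 by limma). Both were also lost with the block and no intensity trend (adjusted p = 0.193 and 0.378 by limma).

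Cldn4 (chromosome 5, 134945123 to 134946934), a sealing claudin of simple epithelia, read 1114 and 1449 in shJmjd1c#3 arrays and 871 and 997 in shJmjd1c#4 arrays, against 1180.1 and 1088 in shNT arrays. Both shJmjd1c#4 arrays were below the other 4, and the shJmjd1c#3 and shNT arrays overlapped. shJmjd1c#4 was lower than shNT by a log2 of -0.28 (SE 0.16, adjusted p = 0.553 by limma) and than shJmjd1c#3 by -0.44 (SE 0.16, 95% interval -0.81 to -0.07; adjusted p = 0.783 by limma, and 0.196 with the block). Neither was called.

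Cldn3 (chromosome 5, 134986214 to 134987476), a relative of Cldn4 on the same chromosome, had 4 probe sets. The brightest read 179 and 162 in shJmjd1c#3 arrays and 224 and 80.3 in shJmjd1c#4 arrays, against 165 and 97.9 in shNT arrays. The groups overlapped, and the SD of shJmjd1c#4 was 101.5 around a mean of 152. The mean of both hairpins differed from shNT by 0.23 (SE 0.37, 95% interval -0.60 to 1.06; adjusted p = 0.865 by limma), an interval that holds differences of both signs.

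To show the sequence at the start of the genes with calls under the block, the RefSeq promoter windows (GRCm38.p6, 250 bases before to 50 after a transcript start, read along the gene's strand) are given. The capitals mark the E-box CAGGTG or its reverse complement CACCTG, the site read by the Snail and Zeb repressors of epithelial genes. Cldn7 has a second annotated start further upstream whose window holds no such E-box, and the Tjp1 window, which lies inside the annotated gene, holds none either.
Cldn6, chr17:23679115-23679414, plus strand: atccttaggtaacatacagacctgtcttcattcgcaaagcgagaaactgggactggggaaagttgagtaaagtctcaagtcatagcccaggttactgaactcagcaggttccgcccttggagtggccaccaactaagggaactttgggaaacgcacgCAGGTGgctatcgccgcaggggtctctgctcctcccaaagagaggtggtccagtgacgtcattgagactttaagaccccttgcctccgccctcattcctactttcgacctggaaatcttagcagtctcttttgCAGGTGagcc
Cldn7, chr11:69965171-69965470, plus strand: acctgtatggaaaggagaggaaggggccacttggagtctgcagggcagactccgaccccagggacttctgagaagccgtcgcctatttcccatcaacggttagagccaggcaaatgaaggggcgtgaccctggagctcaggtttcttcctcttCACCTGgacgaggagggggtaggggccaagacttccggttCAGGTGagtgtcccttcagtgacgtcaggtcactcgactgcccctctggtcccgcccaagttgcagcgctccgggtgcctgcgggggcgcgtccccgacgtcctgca
Tjp1, chr7:65371195-65371494, minus strand: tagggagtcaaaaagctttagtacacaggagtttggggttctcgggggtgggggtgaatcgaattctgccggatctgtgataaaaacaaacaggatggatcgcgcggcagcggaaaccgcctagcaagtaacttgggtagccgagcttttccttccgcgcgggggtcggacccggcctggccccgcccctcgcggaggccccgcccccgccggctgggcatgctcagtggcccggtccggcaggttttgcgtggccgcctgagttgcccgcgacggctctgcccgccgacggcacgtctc
In the Cldn6 window the E-boxes begin at positions -93 and 41 from the start site, and in the Cldn7 window at -97 and -57. Of the 9 genes, 7 had the E-box in at least 1 window (Cldn3, Cldn4, Cldn6, Cldn7, Ocln, Tjp3 and F11r), against 22.6% of the 27025 genes with a window, counting any window of a gene. The GC box GGGCGG (or CCGCCC) was in a window of 8 of the 9, Tjp3 being the exception, against 38.2% of genes. The 8-base palindrome AACCGGTT, the consensus of Grainyhead-like activators of claudin genes, was in 0 of the 9 and 0.174% of genes. These are matches of letters and show no binding.

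Ocln (chromosome 13, 100496504 to 100552718), occludin, read 524 and 507 in shJmjd1c#3 arrays and 424 and 291 in shJmjd1c#4 arrays, against 481 and 316 in shNT arrays. The shJmjd1c#3 arrays were the highest and the shJmjd1c#4 arrays overlapped with shNT. shJmjd1c#3 differed from shNT by 0.39 (SE 0.25, adjusted p = 0.684 by limma), and shJmjd1c#4 differed from shJmjd1c#3 by -0.53 (SE 0.25, 95% interval -1.10 to 0.03; adjusted p = 0.827 by limma, and 0.229 with the block).

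F11r (chromosome 1, 171437561 to 171464593), junctional adhesion molecule A, read 1309.7 and 1337 in shJmjd1c#3 arrays and 1084 and 984 in shJmjd1c#4 arrays, against 962 and 1075 in shNT arrays. Both shJmjd1c#3 arrays were again above the other 4, and the shJmjd1c#4 arrays overlapped with shNT. shJmjd1c#3 differed from shNT by 0.38 (SE 0.14, adjusted p = 0.394 by limma). shJmjd1c#4 differed from shNT by 0.02 (SE 0.14, adjusted p = 0.967 by limma), and from shJmjd1c#3 by -0.35 (SE 0.14, 95% interval -0.66 to -0.05; adjusted p = 0.783 by limma). None of these was called with the block either (adjusted p = 0.131, 0.945 and 0.259 by limma).

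Tjp1 (chromosome 7, 65296165 to 65527850) encodes ZO-1, the scaffold that links claudins and occludin to actin. It read 5726 and 5393 in shJmjd1c#3 arrays and 5645 and 5174 in shJmjd1c#4 arrays, against 4709 and 4214 in shNT arrays. All 4 knockdown arrays were above both controls, and the hairpins overlapped. The mean of both hairpins exceeded shNT by 0.30 (SE 0.10, 95% interval 0.07 to 0.52), a 1.23-fold difference with an adjusted p of 0.27 by limma, and of 0.0364 with the block. The log2 difference from shNT was 0.32 in shJmjd1c#3 and 0.28 in shJmjd1c#4 (SE 0.11 each), and the hairpins differed by -0.04 (95% interval -0.30 to 0.22, adjusted p = 0.977 by limma). The call with the block was lost without shNT replicate 2 (0.27, adjusted p = 0.0609 by limma), without shJmjd1c#3 replicate 1 (0.31, adjusted p = 0.138) and without shJmjd1c#3 replicate 2 (0.28, adjusted p = 0.236). It was lost too with the block and median centring (0.22, adjusted p = 0.0904 by limma), without the filter (0.30, adjusted p = 0.0594) and without an intensity trend (0.30, adjusted p = 0.248). Tjp1 had a single probe set, of the kind that reads several transcripts of 1 gene.

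Tjp3 (chromosome 10, 81273188 to 81291581), which encodes the epithelial scaffold ZO-3, read 261 and 308 in shJmjd1c#3 arrays and 215 and 206 in shJmjd1c#4 arrays, against 278 and 267 in shNT arrays. Both shJmjd1c#4 arrays were below the other 4. shJmjd1c#4 differed from shNT by -0.35 (SE 0.21, adjusted p = 0.554 by limma) and from shJmjd1c#3 by -0.40 (SE 0.21, 95% interval -0.87 to 0.06; adjusted p = 0.827 by limma), neither of them called, with the block or without.

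Cgn (chromosome 3, 94760069 to 94787725), cingulin, read 472 and 691 in shJmjd1c#3 arrays and 413 and 439.8 in shJmjd1c#4 arrays, against 478 and 466 in shNT arrays. The shJmjd1c#4 arrays were the lowest, and shJmjd1c#3 replicate 2 stood apart above the rest. shJmjd1c#4 differed from shNT by -0.14 (SE 0.21, adjusted p = 0.854 by limma) and from shJmjd1c#3 by -0.41 (SE 0.21, 95% interval -0.87 to 0.05; adjusted p = 0.827 by limma). Without shJmjd1c#3 replicate 2 the last difference was -0.14.

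**Figure D2:**
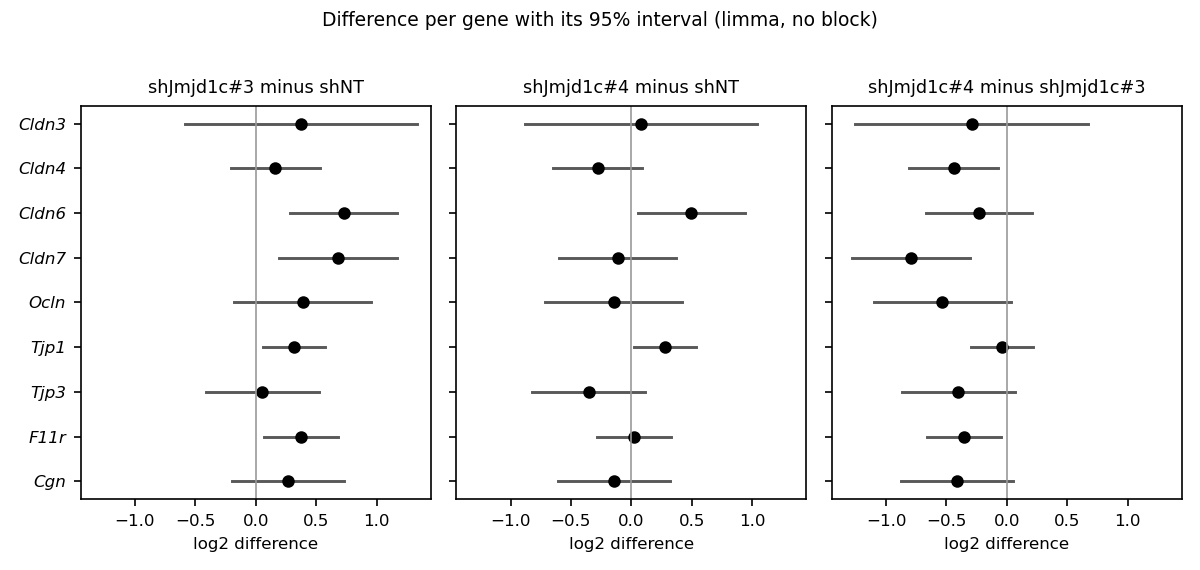
Difference on the log2(signal + 16) scale for each of the 9 genes with its 95% interval from limma without a block, for shJmjd1c#3 minus shNT, shJmjd1c#4 minus shNT and shJmjd1c#4 minus shJmjd1c#3. All 9 points are above 0 in shJmjd1c#3, 4 of 9 are in shJmjd1c#4, and none is in shJmjd1c#4 minus shJmjd1c#3.

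Between the hairpins the 9 genes lay on 1 side. The log2 difference of shJmjd1c#4 minus shJmjd1c#3 was below 0 in all 9, as it was in 48.3% of all genes tested, and its median was -0.40 over the 9 and 0.01 over all genes. In 7 of the 9 (Cldn4, Cldn6, Cldn7, Ocln, F11r, Tjp3 and Cgn) both shJmjd1c#4 arrays read below both shJmjd1c#3 arrays, which held for 18.2% of all genes, and the other two were Cldn3 and Tjp1. No gene of the 9 was called in this comparison without the block, and 3 had an unadjusted p under 0.05 (Cldn4, Cldn7 and F11r). Leaving out shJmjd1c#4 replicate 2 put Cldn3 at 0.37 and Tjp1 at 0.02, so that 7 of 9 remained below 0, and leaving out shJmjd1c#3 replicate 1 put Tjp1 at 0.003.

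In the mean of both hairpins 7 of the 9 differences were above 0 (51.7% of all genes), with a median of 0.20 against 0.01 over all genes. Set beside shNT, which both comparisons share as control, shJmjd1c#3 was higher in all 9 genes (51% of all genes), with a median log2 difference of 0.37 against 0.01 over all genes. Both shJmjd1c#3 arrays were above both shNT arrays in 5 of them (Cldn6, Cldn7, Ocln, F11r and Tjp1; 21.1% of all genes). shJmjd1c#4 was higher in 4 of 9 (52.6% of all genes), with a median of -0.11 against 0.02. Both of its arrays were above both controls for Cldn6 and Tjp1 (21% of all genes) and below both for Cldn4, Tjp3 and Cgn (17.8% of all genes). Without shJmjd1c#3 replicate 2, Cldn4 and Tjp3 were at -0.02 and -0.06 in shJmjd1c#3, so that 7 of 9 were above 0.

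Other measures separated the hairpins too. Actb probe sets at the 3' and 5' ends, whose ratio reads RNA integrity, gave 2.80 and 2.81 in shJmjd1c#4 arrays, against 2.26 and 2.40 in shJmjd1c#3 arrays, with 2.70 and 2.77 in shNT arrays. The shJmjd1c#3 arrays had the lowest ratios. Among the 9 genes, these arrays read above all others for Cldn6, Cldn7, Ocln and F11r. For Cldn4, Tjp3 and Cgn the shJmjd1c#4 arrays were the lowest, and for Cldn6 and Tjp1 the shNT arrays were. The groups overlapped for Cldn3. Markers of primitive and visceral endoderm, epithelia that carry tight junctions themselves, had a summed signal over 11 genes of 1471 to 1952 in shJmjd1c#4, against 786 to 909 in shJmjd1c#3, with 702 to 864 in shNT. Of their 7 tested genes 5 had higher values in shJmjd1c#4 than in shJmjd1c#3, and 2 lower, Gata4 (log2 -0.37) and Amn (-0.29). Between the hairpins 0 of the 7 were called, and 2 were higher in shJmjd1c#4 with the block (0.418% of all genes called). These were the endocytic receptor Cubn (log2 1.62, adjusted p = 0.0168 by limma) and the adaptor Dab2 (1.11, adjusted p = 0.0499 by limma). Both were also called higher with the block in the mean of both hairpins against shNT (5.6% of all genes called). In shJmjd1c#4 against shNT these and Sox17 were called higher with the block (4.9% of all genes), and in shJmjd1c#3 0 of the 7 were (3.43%). Sox17 was at 1.69 in shJmjd1c#4 (adjusted p = 0.0743 by limma, and 0.00902 with the block). The defining visceral genes Afp, Ttr and Apoa1 were below the filter signal on every array, and no marker was listed at 0. Their part, and that of RNA integrity, in the values of the 9 genes was not tested. In such bulk samples fewer cells of a type and less RNA per cell cannot be told apart.

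Markers of other cells were read beside the mean of both hairpins, where 0.725% of all genes were called, and 5.6% with the block. Trophectoderm markers, also of an epithelium with tight junctions, had a summed signal over 11 genes of 8150.4 to 13978 in shJmjd1c#3 and 6969 to 9308 in shJmjd1c#4, against 6131 to 9905 in shNT, so the groups overlapped. Cdx2 alone was called among 9 tested, higher by 2.47 on the log2 scale (adjusted p = 0.0361 by limma). Cdx2 read 90.6 and 209 in shJmjd1c#3 arrays and 104 and 120 in shJmjd1c#4 arrays, against 18.8 and 2.4 in shNT arrays. Both shNT arrays were below the filter signal, so Cdx2 was tested only through its knockdown arrays, and its size is uncertain. With the block 3 were called higher (Cdx2, Krt8 and Krt18) and 1 lower, the trophectoderm factor Tfap2c (-0.47, adjusted p = 0.285 by limma, and 0.0244 with the block). The dim Elf5 and Gata3 were not tested. Fibroblast and feeder markers (14 genes) summed to 3437 to 3487 in shJmjd1c#3 and 4287 to 4350 in shJmjd1c#4, against 2793 to 2840.2 in shNT. Col3a1 was called among 11 tested, and 3 were called higher with the block (Col3a1, Col5a2 and Dcn). In shNT arrays Col3a1 read 25.6 and 37.6 and Dcn 10.9 and 11.7, all below the filter signal. These genes, Col3a1 and Dcn, were thus tested only through their knockdown arrays. Lum was below the filter signal on every array. Embryonic stem cell markers (9 genes) summed to 89467 to 94797 in shJmjd1c#3 and 95895 to 100260 in shJmjd1c#4, against 102840 to 122890 in shNT. Of these 0 were called, and 4 were lower with the block (Dppa5a, Esrrb, Nanog and Sox2). In the mean of both hairpins 2 of the 9 were above 0 (51.7% of all genes), Utf1 (0.29) and Lin28a (0.25), and Pou5f1 was at -0.04. The part of these lists in the differences of Cldn6 and Tjp1 was not tested.

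**Figure D3:**
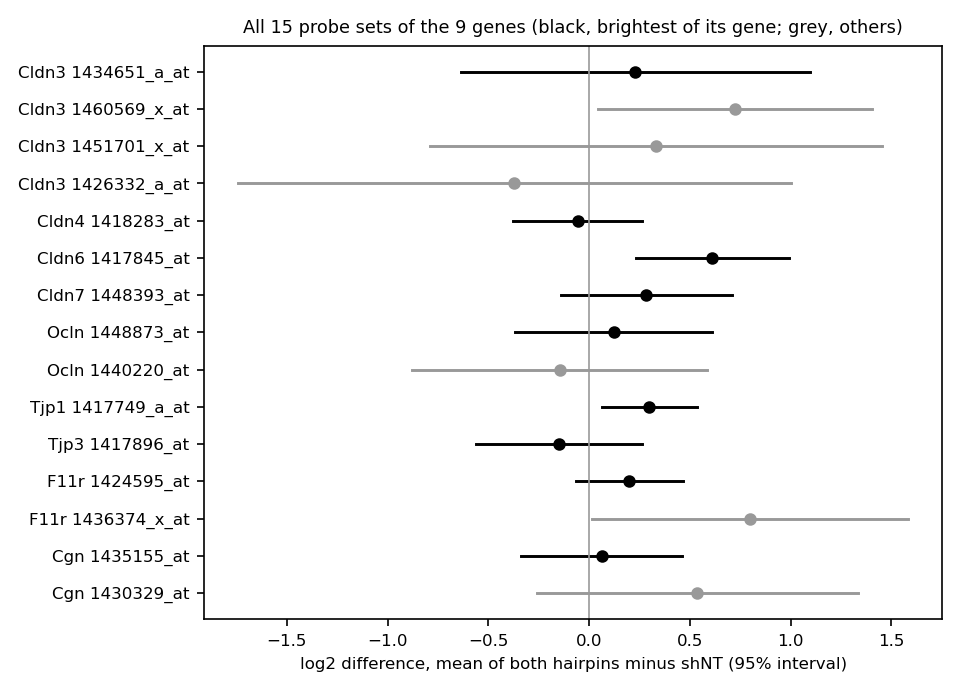
Difference of the mean of both hairpins minus shNT on the log2(signal + 16) scale, with its 95% interval from limma, for all 15 probe sets of the 9 genes, in black for the brightest probe set of a gene and in grey for the others. The 4 probe sets of Cldn3 and the 2 of Ocln lie on both sides of 0, and those of F11r and Cgn lie above it.

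All 45037 probe sets were also tested with no filter. In the mean of both hairpins 0 of the 15 were called (0.0422% of all probe sets), and 0 with the block (1.03%). In that fit with the block Cldn6 and Tjp1 had adjusted p of 0.1 and 0.112 by limma. In shJmjd1c#3 against shNT the Cldn7 probe set was called with the block (adjusted p = 0.04 by limma, and 0.586 without it). Between the hairpins it was not called with the block (adjusted p = 0.08 by limma). In the mean of both hairpins the other 3 probe sets of Cldn3 differed from shNT by 0.72 (1460569_x_at), 0.33 (1451701_x_at) and -0.37 (1426332_a_at). Their SE were 0.30, 0.49 and 0.61, and the 4 probe sets of Cldn3 disagreed in direction. At 1460569_x_at, of a kind that may cross-hybridize, Cldn3 read 119 and 193 in shJmjd1c#3 arrays and 172 and 114 in shJmjd1c#4 arrays, against 81.3 and 83.4 in shNT arrays, so all 4 knockdown arrays were above both controls there. The second probe set of Ocln, 1440220_at, was at -0.15 (SE 0.32), against 0.12 (SE 0.22) for the brighter one. Between the hairpins both Ocln probe sets had lower values in shJmjd1c#4, at -0.60 and -0.53. The dim second probe sets of F11r (1436374_x_at, 0.80, SE 0.35) and Cgn (1430329_at, 0.54, SE 0.35) were above both controls on all 4 knockdown arrays. At these dim probe sets shJmjd1c#4 minus shJmjd1c#3 was 0.02 for F11r (95% interval -0.89 to 0.92) and 0.10 for Cgn (-0.82 to 1.02), wide enough to hold the values of the brighter ones.

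Of the other 55 listed tight junction genes, 40 were tested. In the mean of both hairpins 0 of these were called by limma (0.725% of all genes), and 4 with the block (5.6% of all genes). These 4 were Cxadr, an adhesion receptor of the junction (log2 0.93, SE 0.21, adjusted p = 0.122 by limma, and 0.00364 with the block), Jam2, junctional adhesion molecule B (-0.96, SE 0.23, adjusted p = 0.142, and 0.00144 with the block), and the angiomotins Amot (0.53, SE 0.16, adjusted p = 0.222, and 0.028 with the block) and Amotl2. Over the 40 genes the median log2 difference was 0.15, with 28 above 0 (51.7% of all genes), and the median over all genes was 0.01. Cxadr read 527 and 429 in shJmjd1c#3 arrays and 548 and 426 in shJmjd1c#4 arrays, against 303 and 195 in shNT arrays. Jam2 read 1403 and 1576 in shJmjd1c#3 arrays and 948 and 1758 in shJmjd1c#4 arrays, against 2269 and 3243 in shNT arrays, all 4 knockdown arrays being below both controls. Without shJmjd1c#4 replicate 2, 1 of the 40 was called with no block.

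Of 19 other claudins 16 had a probe set with that symbol alone, and 7 of these passed the filter. The remaining 9, Cldn1, Cldn8, Cldn11, Cldn13, Cldn14, Cldn16, Cldn18, Cldn19 and Cldn23, were too dim to be tested. The 7 had differences of 0.08 to 0.81 in the mean of both hairpins, with 0 called with the block or without. Those with the smallest p were Cldn2, a claudin that forms cation pores (log2 0.81, SE 0.48), Cldn5, of endothelia (0.48, SE 0.38), and Cldn12 (0.15, SE 0.12), with adjusted p of 0.549, 0.679 and 0.681 by limma. Between the hairpins 5 of the 7 other claudins were higher in shJmjd1c#4, with a median of 0.10. By contrast 7 of the 10 other membrane proteins and 13 of the 23 scaffold and polarity proteins were lower there, with medians of -0.18 and -0.12. Over all genes 48.3% were lower there, with a median of 0.01. Whether any of these lists differs from the 9 genes was not tested. Among 10 tested membrane proteins besides claudins, Esam, an adhesion molecule related to F11r, was at 0.88 (SE 0.24, adjusted p = 0.175 by limma). Among 23 tested scaffold and polarity proteins the median was 0.06, with Amotl1 at 0.43 and the many-PDZ-domain scaffold Mpdz at 0.41 (adjusted p = 0.296 and 0.314 by limma).

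**Figure D4:**
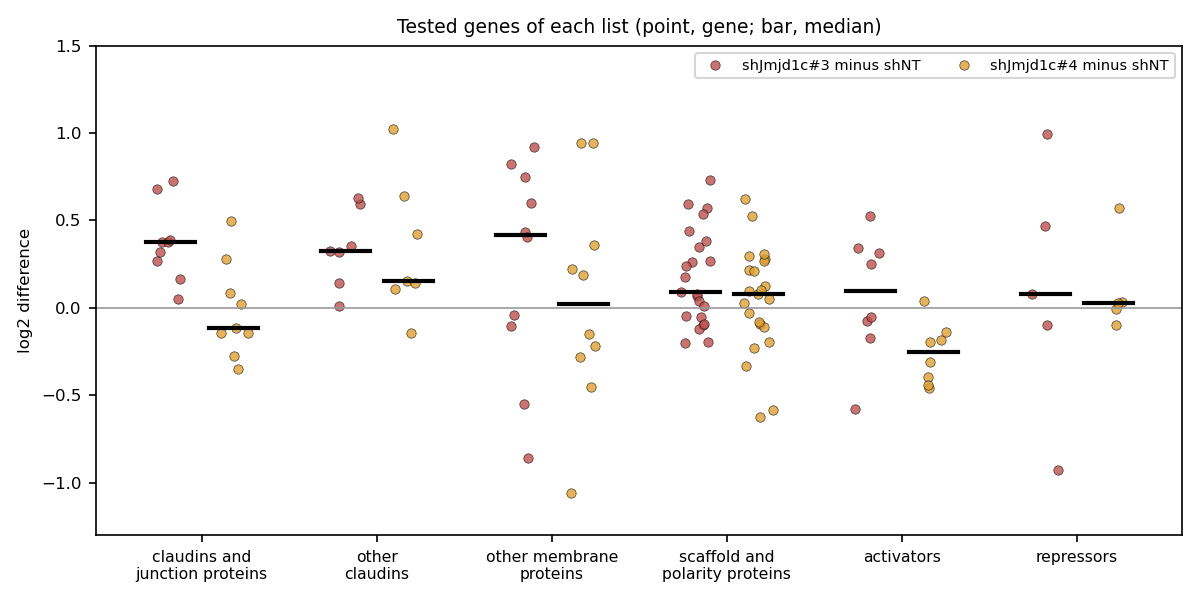
Difference from shNT on the log2(signal + 16) scale for each tested gene (points) of the 9 claudins and junction proteins, the other claudins, the other membrane proteins, the scaffold and polarity proteins, and the activators and repressors of epithelial junction genes, in shJmjd1c#3 and shJmjd1c#4, with bars at the medians. The medians of the 9 genes are 0.37 in shJmjd1c#3 and -0.11 in shJmjd1c#4.

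Regulators of epithelial junction genes were measured on the same arrays. Of 8 tested activators 0 were called in the mean of both hairpins, where 0.725% of all genes were. Between the hairpins 6 of 8 had lower values in shJmjd1c#4 than in shJmjd1c#3, as did 48.3% of all genes. Their median log2 difference was -0.42, against 0.01 over all genes. In the mean of both hairpins Klf5, a factor of epithelia and naive stem cells, was at -0.49 (SE 0.18), Grhl3 at -0.19 (SE 0.16) and Ovol2 at -0.25 (SE 0.29), with adjusted p of 0.307, 0.702 and 0.808 by limma. Of 5 tested repressors 0 were called in the mean of both hairpins. Zeb1, an E-box repressor of claudins and other epithelial genes, read 264 and 246 in shJmjd1c#3 arrays and 497 and 435 in shJmjd1c#4 arrays, against 441 and 566 in shNT arrays, so the shJmjd1c#3 arrays were the lowest. It differed from shNT by -0.93 in shJmjd1c#3 (SE 0.20, adjusted p = 0.14 by limma, and 0.0186 with the block) and by -0.10 in shJmjd1c#4 (SE 0.20). shJmjd1c#4 exceeded shJmjd1c#3 by 0.83 (SE 0.20, adjusted p = 0.503 by limma, and 0.0824 with the block), which was not called. Twist1, a mesenchymal factor among these repressors, was at 0.78 in the mean of both hairpins (SE 0.26, adjusted p = 0.263 by limma). It differed from shNT by 0.99 in shJmjd1c#3 (SE 0.30, adjusted p = 0.326 by limma, and 0.112 with the block). In shJmjd1c#4 it was at 0.57 (SE 0.30, adjusted p = 0.487 by limma). Twist1 was highest in the shJmjd1c#3 arrays, where Zeb1 was lowest. The dim and variable Snai2 was at 0.23 in the mean of both hairpins (SE 0.54). The part of these regulators in the values of the junction genes was not tested.

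The 5 tested genes whose pattern over the 6 arrays was most like that of Cldn6, by Pearson's r of log2(signal + 16), were Glul, glutamine synthetase (r = 0.992), Pigm, of glycosylphosphatidylinositol anchor synthesis (0.99), Akap7, an anchoring protein of protein kinase A (0.987), Pofut2, an O-fucosyltransferase (0.985), and Zbtb49, a zinc finger protein (0.985). These are the highest values among the genes tested, over 6 arrays of 3 groups, and are a description. Glul read 7223 and 6204 in shJmjd1c#3 arrays and 6045 and 6074 in shJmjd1c#4 arrays, against 4685 and 4301 in shNT arrays. All 5 were, like Cldn6, above both controls on all 4 knockdown arrays, as were 11.2% of all genes tested. Their choice by likeness to Cldn6 on these same arrays all but fixed this, so it is no separate result.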

How the data were processed

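Labelled RNA from 6 ug total RNA was read on Affymetrix Mouse Genome 430 2.0 arrays. The deposited signal intensity is linear. The submitters' processing notes name MAS5, with no version. Each array's trimmed mean (middle 96%) came to 500, so the deposited scaling was kept, with no added background correction. Of 45101 probe sets 64 were controls, and of the rest 34945 had 1 symbol in the platform annotation, 932 several and 9160 none. Groups came from the transfection label and replicate numbers from the titles.

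For log2(signal + 16), 3 group means were fitted over 6 arrays with limma 3.58.1 (R 4.3.3), using eBayes with an intensity trend (residual df 3, prior df 5.957), a filter at the 40th percentile and 2-sided tests. Fold changes on this scale understate those of dim genes. Deviations of same-numbered arrays from group means correlated at 0.223 to 0.302 in the 3 pairs of groups, so the numbers were taken to pair the samples, although no label states it, and block values (residual df 2, prior df 9.34) are given where they change a call. Named genes are the 9 genes, the 3 smallest p in the mean of both hairpins of each list of other tight junction genes or their regulators, and the 5 genes most like the member with the smallest p, without RIKEN or Gm symbols. Amotl2, the dim claudins and single marker genes fall outside this rule and were named after their values were seen. The genes and lists were chosen with earlier results of these data known. The fit without the block was tested on simulated data with independent arrays, and the fit with the block was not. The replicates' origin is given only as biological, so p-values measure the spread between these samples. Positions, promoters and names are RefSeq's (GRCm38.p6).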

Additional observations from a re-analysis of the deposited data

How the results depend on the processing

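Of 577 values of single genes under the alternatives, 546 kept direction and call, 5 passed the threshold, all with the block, and 26 changed sign, all from differences that were not called. The count of members called was 0 in each of the 4 comparisons under every alternative but the block, and 0 without each array. With the replicate block it was 2, 2, 0 and 1 (mean of both hairpins, shJmjd1c#3, shJmjd1c#4, difference between hairpins), and for the other tight junction genes 4, with 0 to 1 without 1 array. Members above shNT in shJmjd1c#3 and members below shJmjd1c#3 in shJmjd1c#4 numbered 7 to 9 without 1 array. These counts, and the further settings with the block, were added after the data were seen. With the block and 1 array left out (residual df 1) the count of members called changed in each of the 4 comparisons. No share of all genes called stands beside these fits, so their counts are not given. With the block and no filter the counts of members called were 0 in the mean and 1 in shJmjd1c#3, and with the block and median centring 0 and 1. With the block and no intensity trend they were 0, 0 and, between the hairpins, 0. Median centring moved the median of all genes by -0.109 in shJmjd1c#4 and put F11r at -0.086 and Cldn3 at -0.027 there, and Cgn at -0.013 in the mean of both hairpins. Quantile normalization put Cldn3 at -0.0070 in shJmjd1c#4. Averaging all probe sets of a gene, Ocln was at -0.012 in the mean of both hairpins and Cgn at 0.22 in shJmjd1c#4. Sign changes when 1 array was left out came in ranges, in the mean of both hairpins of -0.11 to 0.56 (Cldn3), -0.15 to 0.036 (Cldn4), -0.17 to 0.41 (Ocln) and -0.071 to 0.20 (Cgn). In shJmjd1c#3 they were -0.024 to 0.35 (Cldn4) and -0.060 to 0.17 (Tjp3). In shJmjd1c#4 they were -0.58 to 0.74 (Cldn3), -0.42 to 0.19 (Cldn7), -0.44 to 0.15 (Ocln) and -0.056 to 0.10 (F11r). Between the hairpins they were -0.95 to 0.37 (Cldn3) and -0.10 to 0.023 (Tjp1). The cause of these changes was not tested. Cldn3 and Tjp1 had no value without probe sets whose ID ends in _s_at, _x_at or _a_at. When 1 array was left out, the lone array of its group was assumed to vary like the others. Signal near background limits Cldn3 and the second probe sets of F11r and Cgn.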
